A study of Xenopus tropicalis with 12 samples.

Results

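The comparison described here asked how the brain transcriptome of Xenopus tropicalis tadpoles without functional thyroid hormone receptor α differed from wild type (WT) before any hormone was added. Its members were all the vehicle libraries, chosen by their genotype and treatment labels: 3 of the Mutant (thra KO) genotype and 3 of the Wild type genotype, 6 of the 12 libraries of the study. The other 6 libraries came from tadpoles of the same genotypes kept in 5 nM 3,5,3′-triiodothyronine (T3) for 16 h. Their values gave the genotype difference in other libraries, although they also entered the fit that set the spread for the vehicle comparison. All tadpoles were at Nieuwkoop-Faber stage 54, and vehicle tadpoles spent the same 16 h in dilute NaOH (the series' design text names DMSO instead).

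The mutants (thra mt-exon4) were homozygous offspring of heterozygous frogs of a TALEN line whose mutation in exon 4 of thra is predicted to end the receptor protein ahead of its DNA-binding domain, whereas WT frogs came from a commercial supplier. The sources used here do not say that WT and mutant tadpoles were siblings, so the mutation and the background of the line cannot be told apart. Each library pooled the micro-dissected preoptic area, thalamus and hypothalamus of 5 tadpoles, with the pituitary attached. The sources call the libraries biological replicates but do not give their clutches. In such bulk tissue, fewer cells of a type and less RNA per cell cannot be told apart.

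Thyroid hormone receptors are nuclear receptors that sit on chromatin with or without hormone. Unliganded receptors recruit corepressors and hold T3-inducible genes at a low level, and T3 binding exchanges these for coactivators. In the premetamorphic tadpole, which has little circulating hormone, the α receptor is the main form in brain. Genes that T3 induces through a receptor element include thrb, which encodes the β receptor, and klf9 and thibz, which encode transcription factors.

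The total of expected counts was between 47496989 and 55109581 in WT vehicle and between 53652922 and 67603703 in mutant vehicle. The targeted gene thra had no identifier paired with it and was not analysed here. The labels alone therefore set the genotypes. Neuron and glia transcripts were abundant in each vehicle library: the summed level of 7 neuron markers was 1700 to 1767 counts per 1000000 (CPM) in WT and 1694 to 1802 CPM in mutant, and that of 4 glial markers 2613 to 2874 and 2785 to 2898 CPM. Otolith and inner ear markers summed to 14.2 to 17.3 and 18.5 to 19.4 CPM, nearly all of it ush1g, while otop1 and otol1 were at or near 0. Muscle markers summed to 150 to 163 and 134 to 175 CPM, but 3 of those 5 features join a muscle gene with another gene. Epithelial markers summed to 9.6 to 11.9 and 10.4 to 16.4 CPM. WT vehicle replicate 3 stood apart from the other WT vehicle libraries. On the first principal component of all 12 libraries, which held 38.8% of the variance, it lay at −18.4, against −0.91 and −3.97 for WT replicates 1 and 2 and −16.3 to −8.45 for mutant vehicle. On the second component (15.4%), WT replicates 1 and 2 lay at 21.3 and 12.5 and replicate 3 at −3.72, against −2.47 to 1.76 for mutant vehicle. Which of the WT vehicle libraries were unusual was not tested. The counts of called features and the fold changes of the genes named by rule were also computed without WT vehicle replicate 3.

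In vehicle, more transcripts were called lower than higher in mutant. Of 22018 features tested, 36 were higher in mutant (0.164%) and 91 were lower (0.413%), together 127 (0.577%; edgeR's quasi-likelihood test with Benjamini-Hochberg adjustment, adjusted p under 0.05). An unadjusted p under 0.05 was reached by 12.7% of the features, 5.27% higher and 7.47% lower. The genotypes' 3 CPM values did not overlap for 15.4% of all features, 6.79% with mutant higher and 8.66% with mutant lower, and for each of the 127 called ones. The changes were mostly small. The median log2 fold change (mutant over WT) was 0.51 among the higher and −0.71 among the lower features, and 5 and 21 of them exceeded 1 in size.

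The number of calls depended strongly on the test and on which libraries were used. DESeq2 called 525 features, 207 higher and 318 lower, including 126 of the 127. With edgeR and without WT vehicle replicate 3, 504 features were called, 185 higher and 319 lower, and these held 126 of the 127. Without another vehicle library the number fell to between 33 and 65, the lowest without mutant replicate 1. In a fit of the 6 vehicle libraries alone it was 28, of which 24 were among the 127. A core of 24 features, 11 higher and 13 lower, was called whichever vehicle library was left out, and it contained the named genes thrb, nfic, pappa, pim3, leng1 and pak6, all of them higher. The bar plot of the calls with single libraries left out shows these counts.

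**Figure D1:**
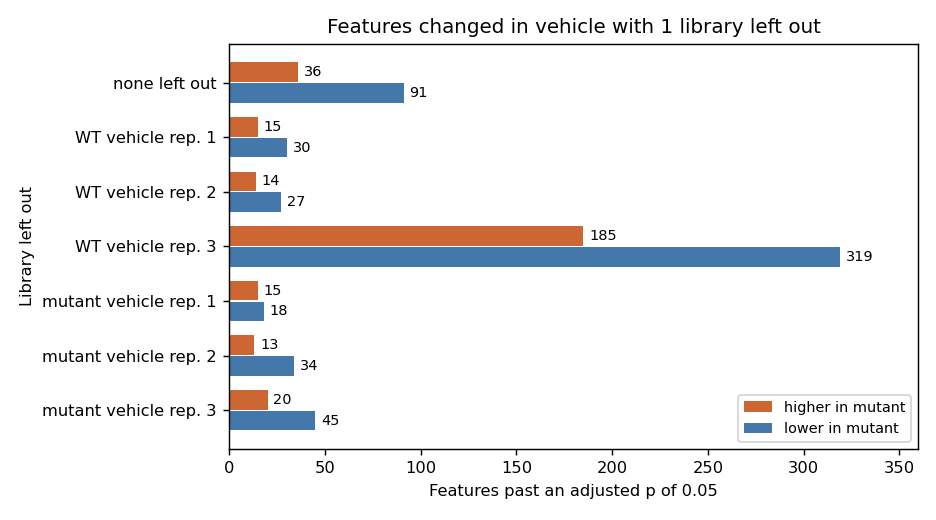
Bars give the number of features past an adjusted p of 0.05 that were higher (orange) or lower (blue) in mutant than in WT vehicle, with no library or 1 vehicle library left out of the fit. The counts were 36 and 91 with none left out, and 185 and 319 without WT vehicle replicate 3.

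Of the 127 features, 19 carried a gene symbol, 14 higher and 5 lower, against 1554 of the 22018 features tested. The other 108 were known by identifier alone. Symbols were available for 1554 tested features, all from the study's list of T3-regulated genes in WT brain, of which the part used here is almost wholly of induced genes: the fitted T3 response of WT was above 0 for 1436 of the 1554. That list was made with the same WT vehicle libraries, so a low value there favoured both the listing and a higher mutant level, and the count of higher named genes is no independent evidence of direction. Over all 1554 the vehicle log2 fold change had a median of 0.05 and was above 0 for 71.0%, against −0.003 and 49.3% over all features tested.

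Among the hormone receptor and metabolism genes, thrb (XLOC_017285) had the largest change of the genes with a symbol that passed the test. Its level was 13.330, 13.534 and 11.996 CPM in the WT libraries and 29.6, 25.9 and 25.6 CPM in the mutant libraries. Every mutant library was far above every WT library. The log2 fold change was 1.06 ± 0.09 (SE, n = 3 per genotype; edgeR adjusted p = 0.000304), and it passed the threshold under all 23 alternative settings. Under T3 the order was the opposite: the level was 112 ± 9.80 CPM in WT and 77.0 ± 4.79 CPM in mutant (SD, n = 3), a log2 fold change of −0.54 (edgeR adjusted p = 0.00307).

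The other genes of that list did not pass the test. For dio3 (XLOC_014986), whose enzyme inactivates T3, the level was 3.42, 2.17 and 2.67 CPM in WT and 1.84, 2.68 and 1.77 CPM in mutant, and the groups overlapped (log2 fold change −0.40, edgeR adjusted p = 0.395). The retinoid X receptor gene rxrb, whose product pairs with thyroid hormone receptors, differed by 0.17 on the log2 scale (edgeR adjusted p = 0.325).

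The transcription factor gene klf9 (XLOC_009053), a direct T3 target, was at 25.1, 27.0 and 10.6 CPM in WT vehicle and 40.9, 39.5 and 33.3 CPM in mutant vehicle. The groups did not overlap, but WT replicate 3 was far below the other WT libraries. The log2 fold change of 0.86 ± 0.24 (SE) had an edgeR adjusted p of 0.146. Without WT replicate 3 the difference was smaller, 0.54, and passed the test at an adjusted p of 0.0188. The leucine zipper gene thibz was close to undetected in vehicle whatever the genotype. Its feature XLOC_028082 was at 0.418, 0.528 and 0.396 CPM in WT and 0.429, 0.544 and 0.923 CPM in mutant, and it reached 34.8 CPM in WT and 10.1 CPM in mutant under T3. The second thibz feature, XLOC_028061, was at 0.0995, 0 and 0.605 CPM in WT and 0.206, 0.338 and 0 CPM in mutant. Neither feature passed the test in vehicle (edgeR adjusted p = 0.541 and 0.904).

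**Figure D2:**
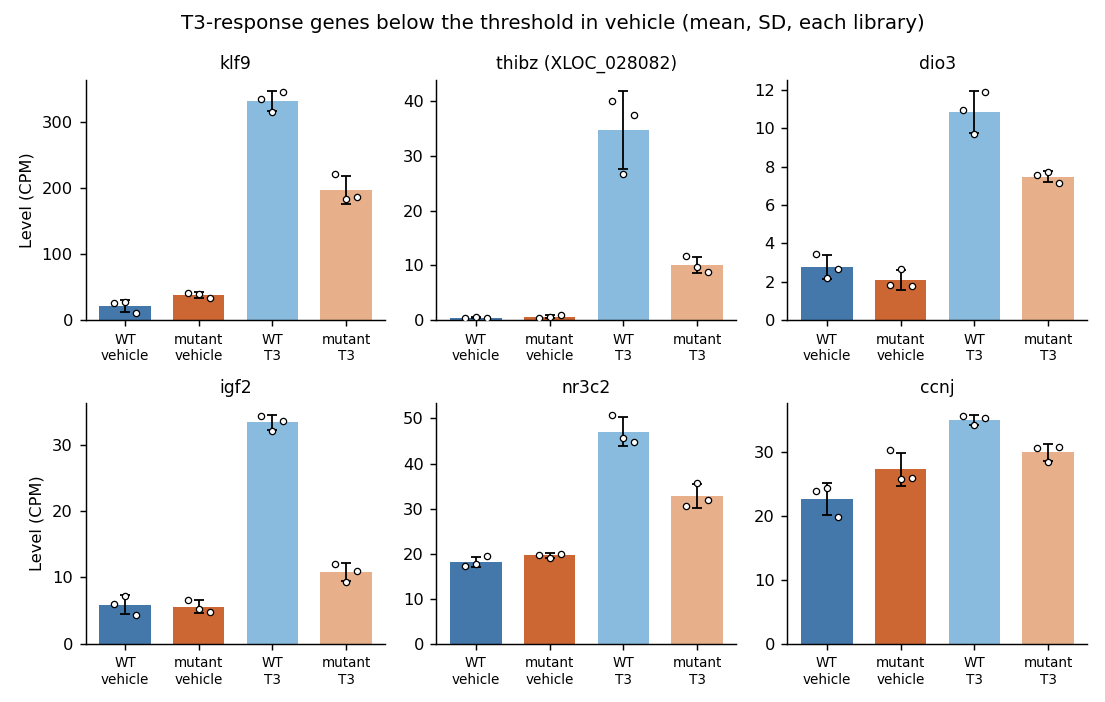
Bars give the mean level in CPM of 6 genes in the 4 groups, error bars the SD of 3 libraries and points the single libraries. In vehicle none of the 6 passed the test, and for klf9 WT vehicle holds 1 low library at 10.6 CPM.

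Of 4 nuclear factor I genes, which encode DNA-binding factors of glial and neuronal differentiation, 1 passed the test and was higher in mutant. Called higher were 0.164% of all features and 14 of the 1554 with a symbol. This list too was chosen with earlier results known, so the count is no independent evidence about the family. For nfic (XLOC_026537) the level was 24.2, 24.6 and 20.6 CPM in WT and 42.1, 37.7 and 40.4 CPM in mutant. The genotypes were well separated, and the log2 fold change was 0.79 ± 0.08 (SE, edgeR adjusted p = 0.000594). Under T3 the WT level was 107 ± 8.36 CPM and the mutant level 66.9 ± 1.20 CPM (SD, n = 3), so that nfic, like thrb, was then lower in mutant (−0.68, edgeR adjusted p = 0.000511). In vehicle nfia, nfib and nfix differed by −0.27, 0.07 and 0.14 on the log2 scale, with edgeR adjusted p of 0.459 or more.

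Among 11 genes of insulin-like growth factor signalling, pappa (XLOC_006154) rose. It encodes a protease that, in mammals, cleaves binding proteins of insulin-like growth factors. The level was 14.2, 15.0 and 14.6 CPM in WT and 23.8, 24.5 and 27.1 CPM in mutant, with little spread within a genotype. The log2 fold change was 0.79 ± 0.07 (SE, edgeR adjusted p = 0.000426). The growth factor gene igf2 itself was at 5.99, 7.23 and 4.36 CPM in WT and 6.66, 5.31 and 4.84 CPM in mutant, and the groups overlapped widely (−0.07, edgeR adjusted p = 0.905). The receptor gene igf1r was at 17.5, 20.1 and 21.3 CPM in WT and 25.5, 24.5 and 25.2 CPM in mutant. The docking protein gene irs2 was at 31.0, 37.2 and 38.5 CPM and 43.2, 44.6 and 44.2 CPM. Neither igf1r nor irs2 passed the test, although their groups did not overlap (edgeR adjusted p = 0.0903 and 0.0949). Of the 11 genes, 5 had mutant above WT in every library and 1 the reverse, against 6.79% and 8.66% of all features. Over all lists together, 37 of 192 features had mutant above WT in every library and 7 the reverse. All 11 carry symbols from the list of T3-regulated genes in WT, and this list too was chosen with earlier results known. The count is therefore no independent evidence about this pathway.

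Of 14 kinase and TRAF signalling genes, 2 rose and none fell, where 0.164% and 0.413% of all features did and 14 of the 1554 with a symbol rose. The list was chosen with earlier results known. The serine/threonine kinase gene pim3 (XLOC_013407), a survival kinase, was at 29.6, 33.3 and 31.8 CPM in WT and 50.2, 46.0 and 43.1 CPM in mutant. The adaptor gene traf3 (XLOC_022068), which acts below receptors of the tumour necrosis factor family, was at 17.9, 16.7 and 15.0 CPM in WT and 27.0, 24.2 and 22.7 CPM in mutant. For both, each mutant library was above each WT library, with log2 fold changes of 0.56 ± 0.07 and 0.57 ± 0.09 (SE, edgeR adjusted p = 0.00482 and 0.013). In the fit of the 6 vehicle libraries alone neither passed (edgeR adjusted p = 0.0623 and 0.114). Under T3 the genotypes were at 67.8 and 68.1 CPM for pim3 and 38.1 and 32.0 CPM for traf3 (WT and mutant), and neither difference passed the test.

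Chromatin regulators, also listed with earlier results known, contributed 3 increases among 18 features and no decrease, beside 0.164% and 0.413% of all features. The level of dnmt3a (XLOC_045061), a DNA methyltransferase gene, was 267, 268 and 261 CPM in WT and 436, 343 and 322 CPM in mutant. Mutant replicate 1 was well above the others, and the log2 fold change was 0.47 ± 0.09 (SE, edgeR adjusted p = 0.029). The call was lost when WT vehicle replicate 1 or 2, mutant vehicle replicate 2 or any WT T3 library was left out. The level of dot1l (XLOC_021772), which encodes a histone H3 methyltransferase was 51.2, 51.4 and 44.8 CPM in WT and 68.6, 62.4 and 59.9 CPM in mutant (0.37 ± 0.07, edgeR adjusted p = 0.0408). It was called in only 8 of 23 alternatives. The level of hmga2 (XLOC_019811), an architectural chromatin protein gene of progenitor cells, was low, at 1.31, 1.38 and 1.29 CPM in WT and 2.51, 2.70 and 2.41 CPM in mutant. The groups were clearly separate for this gene (0.93 ± 0.17, edgeR adjusted p = 0.0268), but limma-voom did not call it (adjusted p = 0.063).

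**Figure D3:**
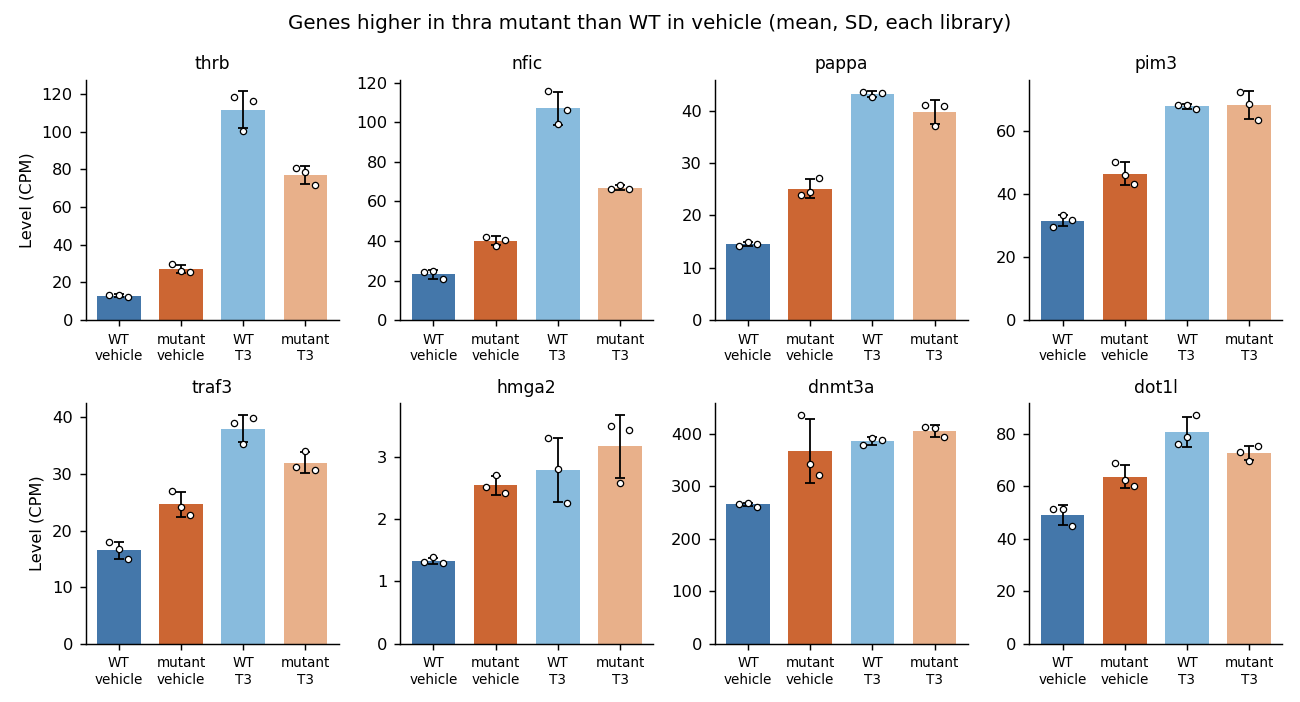
Bars give the mean level in CPM of 8 genes that were higher in mutant than in WT vehicle, in the 4 groups, with the SD of 3 libraries as error bars and the single libraries as points. In vehicle each mutant library is above each WT library, while under T3 thrb and nfic passed the test as lower in mutant. The mutant T3 libraries of pappa, traf3 and dot1l also lie below WT, without passing.

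Another 6 named features rose outside these lists. The lectin-like gene lman1l was at 8.34, 7.18 and 6.11 CPM in WT and 11.4, 13.2 and 13.0 CPM in mutant (0.80 ± 0.13, edgeR adjusted p = 0.0156). The level of leng1 was 3.94, 4.39 and 3.96 CPM in WT and 7.09, 6.38 and 6.21 CPM in mutant (0.68 ± 0.10, edgeR adjusted p = 0.00921). For both, mutant was above WT in every library. The unnamed gene model xb-gene-5772074 was at 10.4, 9.98 and 10.5 CPM in WT and 14.1, 13.7 and 14.2 CPM in mutant (0.44 ± 0.08, edgeR adjusted p = 0.0226). The remaining genes, pak6, cidea and homer1, changed by 0.40 or less, and they were added after their values were seen because no other gene with a symbol was called higher. The p21-activated kinase gene pak6 was at 47.7, 44.6 and 51.3 CPM in WT and 64.0, 63.8 and 61.7 CPM in mutant (0.40, edgeR adjusted p = 0.00921). The lipid droplet protein gene cidea was at 28.8, 32.4 and 31.3 CPM in WT and 41.3, 39.2 and 40.1 CPM in mutant (0.38, edgeR adjusted p = 0.0175), and homer1, which encodes a postsynaptic scaffold, at 98.0, 104 and 103 CPM and 121, 119 and 120 CPM (0.24, edgeR adjusted p = 0.0268). Under T3 cidea, like thrb and nfic, was lower in mutant than in WT (−0.48, edgeR adjusted p = 0.00154).

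Features with a symbol that fell included a gene of motile cilia. The level of ttc25 (XLOC_027808), which encodes a docking protein of outer dynein arms in motile cilia, was 4.48, 4.55 and 3.55 CPM in WT and 2.35, 2.29 and 2.31 CPM in mutant. The mutant libraries were nearly equal to each other and all below WT, with a log2 fold change of −0.86 ± 0.14 (SE, edgeR adjusted p = 0.0165). The call held in 16 of 23 alternatives. It was lost in the fit of the 6 vehicle libraries alone (edgeR adjusted p = 0.103). It was also lost when WT vehicle replicate 1 or 2 or any mutant vehicle library was left out. Of the 6 motile cilia markers ttc25 alone passed the test, where 0.413% of all features were called lower. Another marker, tekt3, had every mutant library below every WT library without passing (−0.47, edgeR adjusted p = 0.233). The marker mapk15 had every mutant library above every WT library without passing (0.21, edgeR adjusted p = 0.452). The genes spef1 and zmynd12 differed by −0.04 and −0.07. Of the 6 markers mapk15 alone had a fold change above 0, and their median was −0.17 on the log2 scale. The summed level of the 6 was 33.1 to 40.5 CPM in WT and 31.3 to 34.3 CPM in mutant, and the part that ciliated cells had in the result was not tested.

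The neuron marker snap25, a presynaptic fusion protein gene, differed by −0.04 on the log2 scale and did not pass. The level of efhd1 (XLOC_032319), a calcium-binding mitochondrial protein gene, was 42.9, 45.2 and 39.3 CPM in WT and 32.5, 32.6 and 31.4 CPM in mutant (−0.40 ± 0.07, edgeR adjusted p = 0.018). The level of dbndd1 (XLOC_036130), a dysbindin domain gene, was 57.5, 58.2 and 47.7 CPM in WT and 38.3, 43.0 and 37.8 CPM in mutant (−0.46 ± 0.09, edgeR adjusted p = 0.0333). Feature XLOC_016044, which joins a8wgt9_xentr with the actin-binding caldesmon gene cald1 and is therefore uncertain as to gene, was at 76.8, 76.9 and 68.7 CPM in WT and 61.0, 59.0 and 58.3 CPM in mutant (−0.32 ± 0.05, edgeR adjusted p = 0.0189). For efhd1, dbndd1 and XLOC_016044, no mutant library reached the lowest WT library. Under T3 ttc25, dbndd1 and efhd1 were also lower in mutant, with log2 fold changes of −1.41, −0.82 and −0.48 (edgeR adjusted p = 0.000281, 0.000342 and 0.00211), whereas XLOC_016044 did not pass there (−0.10, edgeR adjusted p = 0.267).

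Of 16 cell cycle features none passed the test in vehicle. Their median log2 fold change was 0.06, and 12 were above 0, as were 71.0% of features with a symbol. The cyclin gene ccnj was the only one whose groups did not overlap in this direction, at 23.9, 24.4 and 19.8 CPM in WT and 30.3, 25.7 and 25.9 CPM in mutant (0.27, edgeR adjusted p = 0.229). The cyclin gene ccnd2 was at 135, 132 and 110 CPM in WT and 151, 124 and 140 CPM in mutant, and those groups overlapped. The kinase genes cdk8, cdk11b and cdk13 and the repressor gene e2f6 differed by 0.10, 0.06, 0.06 and 0.02 on the log2 scale (edgeR adjusted p of 0.722 or more).

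The other groups of genes gave no call. The mineralocorticoid receptor gene nr3c2 was at 17.2, 17.8 and 19.4 CPM in WT and 19.8, 19.1 and 19.9 CPM in mutant (0.11, edgeR adjusted p = 0.591), in overlapping groups. Of 12 receptor coregulators and Mediator subunits 10 were above 0 with a median of 0.07 and a largest difference of 0.13. Of 8 hypothalamic peptide and receptor genes, the bombesin receptor gene brs3 had mutant above WT in every library, at 8.71, 7.83 and 6.80 CPM and 9.74, 11.7 and 12.1 CPM (0.52, edgeR adjusted p = 0.104). Oxytocin (oxt) was at 135, 138 and 103 CPM in WT and 73.7, 115 and 97.8 CPM in mutant, and vasopressin (avp) at 60.3, 60.0 and 48.2 CPM and 35.4, 69.1 and 50.9 CPM. Both peptide genes overlapped between genotypes (edgeR adjusted p = 0.269 and 0.837). None of 12 metalloproteinase, 16 neurogenic factor, 26 ribosome biogenesis or 17 chaperone features passed, and their medians were between −0.04 and 0.08. Over all lists together, 8 of 192 features rose and 2 fell, and 128 had a fold change above 0. Over all features tested, 0.164% rose, 0.413% fell and 49.3% had a fold change above 0. Among the 1554 features with a symbol, 14 were called higher and 71.0% had a fold change above 0. The lists were chosen with earlier results of these data known, so their counts are a description only.

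The features known by identifier alone held most of the changes, 22 higher and 86 lower. They were also most of the features tested, since 1554 of 22018 carried a symbol. The higher ones had a median of 44.5 CPM in WT and 54.7 CPM in mutant, and the lower ones of 21.1 and 13.7 CPM. The largest increase with a mean over 1 CPM in the vehicle libraries was that of XLOC_039026, at 9.53, 10.3 and 6.57 CPM in WT and 29.0, 24.8 and 25.6 CPM in mutant (1.58 ± 0.14, edgeR adjusted p = 0.00045). It was called under all 23 alternatives, as was XLOC_002200 among the decreases. The level of XLOC_002200 was 25.1, 25.8 and 11.4 CPM in WT and 4.79, 3.30 and 3.87 CPM in mutant. WT replicate 3 was lower than the other WT libraries but still above every mutant library (−2.38 ± 0.31, edgeR adjusted p = 0.0054). Smaller increases were those of XLOC_031406, from 2.68 ± 0.417 to 5.24 ± 0.178 CPM, and XLOC_035944, from 0.80 ± 0.0649 to 1.95 ± 0.365 CPM (SD, n = 3).

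Other decreases rested on fewer counts or on uneven libraries. Feature XLOC_029215 was at 1.45, 1.84 and 1.82 CPM in WT and 0.223, 0.488 and 0.253 CPM in mutant (−2.42 ± 0.34, edgeR adjusted p = 0.00876). The largest fitted decrease among the called features, of XLOC_039337, came from WT values of 18.5, 3.68 and 0.229 CPM against mutant values of 0.172, 0.188 and 0.0893 CPM. Its WT libraries differed from each other far more than WT replicate 3 differed from mutant, and it was called in 7 of 23 alternatives (edgeR adjusted p = 0.0446). Features on opposite sides of 1 CPM in the genotypes were also counted, which is not a count of complete gain or loss. Over 1 CPM in each library of WT and under 1 CPM in each of mutant were 38 features, and 17 showed the reverse, but 3 of these 55 had a mean over 2 CPM in the higher genotype and 2 passed the test. Under T3 the same rule gave 39 and 39 features, and 1 and 2 met it under both treatments.

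**Figure D4:**
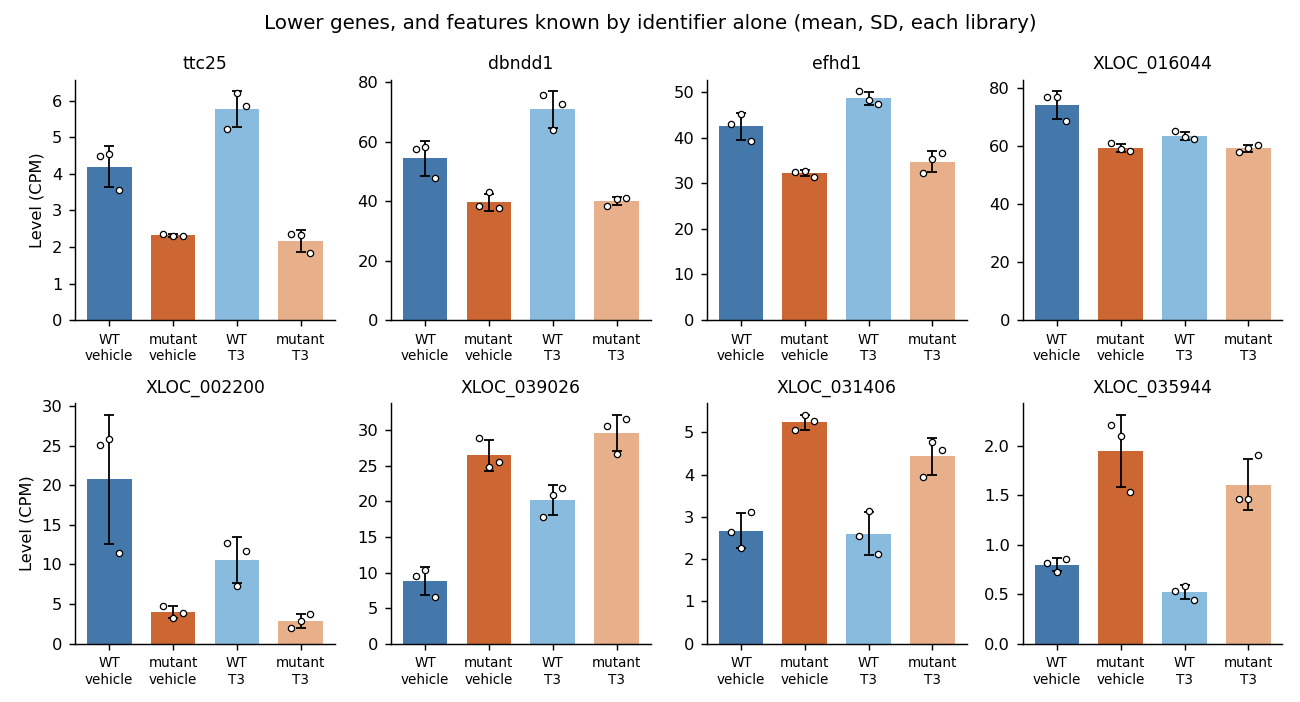
Bars give the mean level in CPM of 3 genes and the joined feature XLOC_016044, all lower in mutant vehicle, and of 4 features known by identifier alone, in the 4 groups, with the SD of 3 libraries and single libraries as points. The mutant libraries of ttc25, dbndd1, efhd1, XLOC_016044 and XLOC_002200 lie below WT under both treatments, and XLOC_039026, XLOC_031406 and XLOC_035944 above it. Under T3 the difference of XLOC_016044 did not pass the test.

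The genotype difference under T3 was taken from libraries whose values were not part of the vehicle fold changes. They were in the same fit, however, and shared its spread and filter: without any 1 T3 library the vehicle calls numbered 97 to 125. Among all features, 6.88% were called between mutant and WT under T3, 3.7% higher and 3.18% lower, and 56.2% had the same sign of the genotype difference under T3 as in vehicle. Of the 127 features changed in vehicle, 104 had the same sign under T3 (81.9%) and 49 were also called in that direction (38.6%). The lower features did so in 78 of 91, with 36 called, and the higher features in 26 of 36, with 13 called. Without WT vehicle replicate 3 the share with the same sign was 85.9% of 504. All libraries of a genotype share its line in vehicle and T3, so this repeat does not separate the mutation from the background of the line.

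The increases under T3 are given apart for features with and without a symbol. Of the 22 higher features known by identifier alone, 19 had the same sign under T3 and 13 were called, with medians of 0.45 in vehicle and 0.35 under T3 on the log2 scale. Of the 14 higher genes with a symbol, 7 had the same sign under T3 and none was called in that direction, with medians of 0.57 and −0.06, and by edgeR thrb, nfic and cidea were called lower. The WT T3 libraries had a part in how the symbols were chosen, so the T3 values of these 14 genes are a description only. For the decreases, 73 of 86 identifier-only features and all 5 features with a symbol had the same sign, and 32 and 4 were called.

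**Figure D5:**
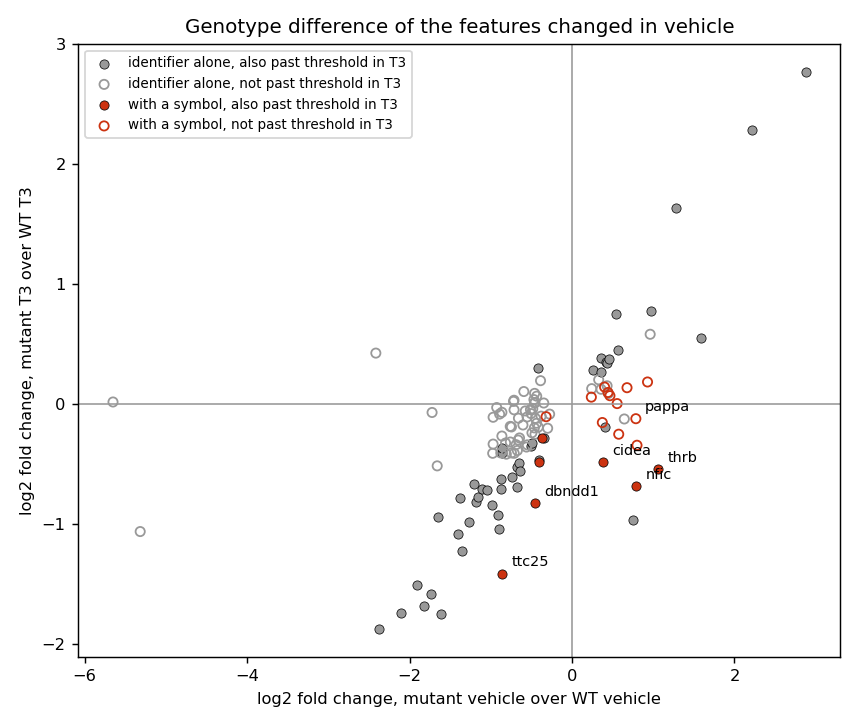
Each of the 127 features changed in vehicle is plotted by its log2 fold change between mutant and WT in vehicle (horizontal axis) and under T3 (vertical axis). Filled points also passed the test under T3, and thrb, nfic and cidea lie below 0 under T3 although above 0 in vehicle.

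Position relative to thra was examined in the RefSeq gene order of X. tropicalis, since sequence near the gene is inherited with the mutation. Of the 25 nearest tested features with a symbol, which reached 167 genes away, ttc25 alone was called in vehicle (54 genes from thra), and 6 had an unadjusted p under 0.05, against 0.577% and 12.7% of all features. Under T3, 7 of the 25 were called, against 6.88% of all features. All 25 carried symbols from the list of T3-regulated genes in WT, whose members had a median log2 fold change of −0.19 between genotypes under T3, against 0.01 over all features tested. The part of this stretch in the level of ttc25 was not tested.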

How the data were processed

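RNA of the dissected brain region was sequenced in 12 libraries, 3 for each of 4 groups taken from the labels. Per the methods, the authors mapped 50-nt single-end reads, run on 2 lanes, with Bowtie to genome version 4.1 of X. tropicalis, and RSEM counted reads on a custom gene model. The submitters' processing notes also name CASAVA 1.8.2, cutadapt and limma, but strand use was not given in the sources used here, so overlapping genes are uncertain. The authors deposited RSEM expected counts, which are estimated counts without normalization that share multi-mapping reads, and TPM values, which were used for no test. The tables' FPKM values were not used. Depth was 41012459 to 67603703 expected counts per library, and no column of per-sample values was left unmapped.

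Expected counts were rounded, scaled by TMM and filtered with filterByExpr, which left 22018 of 33875 features. A single fit of the 12 libraries in edgeR 4.0.16 (R 4.3.3) gave quasi-likelihood tests, with Benjamini-Hochberg adjustment over all features and a threshold of 0.05. CPM uses TMM library sizes. Simulated data for this comparison, with a log2 fold change of 1 put into 200 of 21734 features, returned 184 of them (92.0%) and 17 false calls. The called features had smaller medians, 0.51 for higher and −0.71 for lower ones, and recovery at those sizes was not tested. The common dispersion was 0.0221 in WT vehicle, 0.0147 in mutant vehicle, 0.00485 in WT T3 and 0.0115 in mutant T3. The effect of this inequality on recovery and false calls was not tested. Alternatives were limma-voom (limma 3.58.1), DESeq2 1.42.0, median-of-ratios size factors, no filter, only the groups compared, a log2 fold change over 0.5, the replicate number as a block, equal depth, no new_exon features and each library left out. Another 2 were chosen after seeing the data: the block, and the loss of WT vehicle replicate 3, each in the 6 vehicle libraries alone.

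The members, the 20 gene lists and the rule for named genes were chosen with earlier results of these data known. Named were 14 genes that the paper discusses in brain, list members past the threshold, up to 10 features with a symbol and 3 by identifier (mean over 1 CPM) with the largest changes in each direction. Symbols came from a supplementary table of the study, used for its names only: 1554 identifiers were paired, 49 with several symbols, and 1501 matched RefSeq. The RefSeq table used (UCB_Xtro_10.0) gave gene order only. Promoter sequences were not used here, and a few genes are not reported here. Figures were drawn with matplotlib 3.10.9.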

Additional observations from a re-analysis of the deposited data

Results flagged for a closer look

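For 12 of the named features the genotype difference was not the same in vehicle and under T3 by the interaction term of the edgeR fit (quasi-likelihood test, Benjamini-Hochberg adjusted p under 0.05). Values are the log2 difference between mutant and WT under T3 minus that in vehicle. The term was −1.60 for thrb, −1.47 for nfic, −0.91 for pappa, −0.82 for traf3, −0.55 for pim3, −0.53 for dot1l and −1.14 for lman1l, all of them higher in mutant vehicle. It was −2.30 for thibz (XLOC_028082), −1.56 for igf2 and −0.63 for nr3c2, which did not pass the test in vehicle and were lower in mutant under T3. By identifier alone, it was −1.03 for XLOC_039026, which was higher in mutant under both treatments, and 2.84 for XLOC_029215, which was lower in mutant vehicle and did not pass under T3. Of all 127 features changed in vehicle, 18 had such a difference, 12 of the higher and 6 of the lower. The term contains the vehicle difference by which these 127 were chosen, which favours a term of the opposite sign. The same holds for named features chosen by their vehicle difference. These terms and counts are therefore a description only, and the share over all features tested is not given here.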

How the results depend on the processing

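Of the 782 values of single named features under alternatives, 620 kept direction and side of the threshold and 151 kept direction but no longer passed. Another 1 (klf9 without WT vehicle replicate 3) newly passed and 10 turned direction, all 10 of uncalled features. Named features not called in the main fit, such as klf9, dio3 and igf2, had no call to lose. The 620 of 782 is therefore not the share of calls that held. The counts of changed, higher and lower features in vehicle (127, 36 and 91) were 84, 18 and 66 with a log2 fold change over 0.5, 525, 207 and 318 by DESeq2, 28, 7 and 21 with only the groups compared, and 33 to 504, 13 to 185 and 18 to 319 with single libraries left out. The replicate numbers did not pair WT with mutant libraries (same-number correlations of deviations in vehicle 0.19, −0.24 and −0.16). Pairing of vehicle with T3 libraries by number was not examined. With the replicate block the counts were 76, 21 and 55, and with the block in the vehicle libraries alone 12, 3 and 9. Without WT vehicle replicate 3 the vehicle libraries alone gave 99, 18 and 81. List members changed (10) numbered 16 by DESeq2, 3 with only the groups compared, 6 with the block, 1 with the block in the vehicle libraries alone, 5 in those without WT vehicle replicate 3, and 4 to 18 with single libraries left out. The 1515 features changed under T3 became 573 with a log2 fold change over 0.5, 2654 by DESeq2, 3134 with only the groups compared, and 293 to 2655 with single libraries left out. The percentage with the same sign under T3 (81.9%) was 70.8% to 85.9% with single libraries left out, the lowest without mutant vehicle replicate 3. The 55 features over 1 CPM in 1 genotype and under it in the other became 84 to 113. In the vehicle libraries alone without WT vehicle replicate 3, the log2 fold change turned to 1.82 for thibz (XLOC_028061), −0.016 for e2f6 and −0.019 for cdk11b. With single libraries left out it ranged from −1.20 to 1.79 for that thibz feature, −0.24 to 0.11 for igf2, −0.026 to 0.073 for e2f6 and −0.018 to 0.15 for cdk11b. The causes were not tested. The motif count in promoters was not run.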
